A study of Drosophila melanogaster with 23 samples.

Results

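Fas3, eya, cas, upd1, slbo, mirr and neur are genes used to follow the somatic follicle cells of the Drosophila melanogaster ovary, the polar cells at the poles of each egg chamber and the border cells that migrate through it. The 7 genes were taken by name from a list of 8 and matched by FlyBase symbol to the gene IDs of the deposited count tables, which hold 17023 genes. The eighth listed gene, br, an ecdysone-responsive transcription factor that patterns the eggshell appendages, is not analysed here. The rule uses names and no measured value, although the genes were proposed with earlier results of these data known. The genes were followed as CPM, the counts of a gene divided by all counts of its library and scaled to a common total, across 23 libraries in 12 groups.

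Follicle cells arise from follicle stem cells in the germarium and enclose each germline cyst in an epithelium. Early in this lineage some cells become polar cells and stalk cells, which stop dividing, while the main body cells divide and later switch to endocycles when Notch is activated by its ligand from the germline. Polar cells secrete the JAK-STAT ligand Unpaired, and neighbouring cells that receive a high level of it turn on slbo and become border cells. In bulk tissue the RNA of these cells is diluted by germline, muscle and other RNA, and fewer cells of a type cannot be told apart from less RNA per cell.

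All ovaries were dissected 1 to 5 days after eclosion. The libraries labelled MSL3 RNAi, and those of NC2b RNAi, Set2 RNAi and S19b RNAi, carried the RNAi transgene with UAS-Dcr2 and nosGAL4. This driver is active in the germline, so the knockdown is directed at germ cells and not at the follicle cells in which the 7 genes are usually studied. The group bam RNAi;S19b mutant carried bam RNAi under nosGAL4 together with a mutation labelled S19b. The control called hsbam carried bam RNAi under nosGAL4 plus a heat-shock bam transgene, hsbam. The product of bam starts cyst differentiation, so without it the germline stays stem-like, and a heat-shock pulse can release it. Libraries hsbam 1 and 2 were the controls of MSL3 RNAi and NC2b RNAi, and hsbam 3 and 4 those of Set2 RNAi. The bam RNAi group carried bam RNAi under nosGAL4 alone. For S19b RNAi and a further hsbam set, total and polysome RNA came from polysome gradients. Whole ovaries carried UAS-Dcr2 and nosGAL4 with no RNAi and served for staging. Each group had 2 libraries, except whole ovaries with 1. The labels do not say whether replicate libraries came from separate dissections, so p-values measure only the spread between these libraries. How often the libraries of groups failed to overlap was not counted over all genes, so separation of a named gene is a description only.

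Library totals ran from 2780781 to 39149303 counts, with the polysome library hsbam 2 the smallest. The targeted gene msl-3 had 65.6 and 39.0 CPM in libraries 1 and 2 labelled MSL3 RNAi, against 32.0 and 38.5 CPM in hsbam 1 and 2, so it was not lower and goes against the label. NC2beta had 4.69 and 5.12 CPM in NC2b RNAi, against 12.2 and 16.0 CPM in hsbam 1 and 2. Set2 had 62.2 and 54.3 CPM in Set2 RNAi, between hsbam 3 with 266 CPM and hsbam 4 with 37.2 CPM. RpS19b had 29.9 and 15.0 CPM in bam RNAi;S19b mutant, against 189 and 249 CPM in bam RNAi. In total RNA it had 16.8 and 1.44 CPM in S19b RNAi, against total RNA of hsbam 1 with 39.4 CPM and hsbam 2 with 228 CPM. Levels of bam also differed between libraries of the same label, with 4.61 and 71.9 CPM in hsbam 1 and 2 and 4.07 and 39.1 CPM in the total RNA of S19b RNAi 1 and 2. A check of the tissue found all 17 matched eggshell genes of late follicle cells with counts in each of the 12 groups. Outside the gradients their summed level reached 31240 CPM in an NC2b RNAi library and was as low as 1192 CPM in a library of hsbam 3 and 4.

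The 7 genes spanned a wide range of abundance. Per kilobase of merged exon, the median level over the 23 libraries was 55.7 CPM for Fas3, 20.8 for eya, 10.5 for neur, 8.28 for cas, 5.78 for mirr, 0.855 for upd1 and 0.436 for slbo. The ligand and the border cell factor were thus the scarcest, as 5 libraries held no slbo count at all, whereas each of the other 6 genes was counted in every library.

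Fas3 (FBgn0000636) encodes Fasciclin III, a homophilic adhesion molecule that marks the membranes of early follicle cells and stays high in polar cells. It lies on chromosome 2L (18320102 to 18393441, plus strand, dm6) and spans CG34171 and Acp36DE without sharing exon bases with either. In NC2b RNAi it had 183 and 147 CPM, in Set2 RNAi 113 and 185 CPM, and it had 166 and 738 CPM in libraries 1 and 2 labelled MSL3 RNAi. The controls had 707 and 677 CPM in hsbam 1 and 2 and 290 and 368 CPM in hsbam 3 and 4. The groups with bam RNAi and no hsbam transgene were high, with 714 and 831 CPM in bam RNAi;S19b mutant and 461 and 511 CPM in bam RNAi. Whole ovaries, at 81.9 CPM (95% exact Poisson interval 78.7 to 85.2, counting error only), were below every other library. Only 1 library of those labelled MSL3 RNAi reached the level of hsbam 1 and 2, and the other lay among the NC2b RNAi and Set2 RNAi values.

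In the order of group means, bam RNAi;S19b mutant stood first for Fas3, apart from hsbam 1 and 2 in second place. From second to ninth place each group overlapped its neighbour. NC2b RNAi and Set2 RNAi, which overlapped each other, followed apart from hsbam 3 and 4, and whole ovaries came last.

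Among the transcription factors, eya (FBgn0000320) encodes Eyes absent, a transcriptional coactivator and phosphatase whose loss is part of how polar and stalk cells are set aside from main body follicle cells. It lies on chromosome 2L (6527447 to 6546976, minus strand). Its level was 23.4 and 66.6 CPM in libraries 1 and 2 labelled MSL3 RNAi, while NC2b RNAi had 46.0 and 35.2 CPM and Set2 RNAi 40.0 and 43.3 CPM. Against these stood 176 and 136 CPM in hsbam 1 and 2 and 76.8 and 97.4 CPM in hsbam 3 and 4. All 6 libraries of these 3 knockdowns therefore lay below hsbam 1 to 4. The level was 147 and 135 CPM in bam RNAi;S19b mutant and 160 and 143 CPM in bam RNAi, and these groups overlapped each other and hsbam 1 and 2. Whole ovaries had 54.9 CPM (interval 52.3 to 57.6), within the range of the libraries labelled MSL3 RNAi, and no neighbours in the order of the 12 groups were apart.

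The zinc finger gene cas, castor (FBgn0004878), acts in the early follicle lineage and in polar and stalk cell fate. Its locus is on chromosome 3R (5712975 to 5716805, minus strand). The libraries 1 and 2 labelled MSL3 RNAi held 3.19 and 11.6 CPM, NC2b RNAi 4.19 and 3.14 CPM, and Set2 RNAi 2.71 and 6.85 CPM. The control values were 49.1 and 71.4 CPM in hsbam 1 and 2 and 27.2 and 26.1 CPM in hsbam 3 and 4, so again no library of these 3 knockdowns overlapped hsbam 1 to 4. It reached 62.0 and 77.6 CPM in bam RNAi;S19b mutant, above the 38.1 and 33.2 CPM of bam RNAi. Whole ovaries held 3.80 CPM (interval 3.14 to 4.57). The ratio of pooled cas CPM in NC2b RNAi to whole ovaries was 1.01 (exact 95% interval 0.797 to 1.28, counting error only), whereas the group mean of hsbam 1 and 2 was 15.8 times the whole ovary value and that of bam RNAi 9.37 times.

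The homeobox gene mirr, mirror (FBgn0014343), is active in dorsal anterior follicle cells downstream of EGFR and helps to set the dorsoventral axis of the egg. It lies on chromosome 3L (12693639 to 12710249, plus strand). It had 10.8 and 13.7 CPM in libraries 1 and 2 labelled MSL3 RNAi and 22.5 and 19.4 CPM in NC2b RNAi, against 53.1 and 49.9 CPM in hsbam 1 and 2. In Set2 RNAi it had 15.4 and 8.01 CPM, while hsbam 3 and 4 had 24.6 and 17.0 CPM. By group mean it was highest in the groups with bam RNAi and no hsbam transgene. It had 80.0 and 50.2 CPM in bam RNAi;S19b mutant and 93.3 and 52.7 CPM in bam RNAi. Those 2 groups overlapped each other, hsbam 1 and 2, and the total RNA of both genotypes of the gradients. Whole ovaries had 17.7 CPM (interval 16.2 to 19.2).

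The ligand gene upd1, unpaired 1 (FBgn0004956), is expressed in polar cells from the germarium on. Its locus is on chromosome X (18305354 to 18309291, minus strand). Its level was 0.287 and 0.987 CPM in libraries 1 and 2 labelled MSL3 RNAi, 1.30 and 1.57 CPM in NC2b RNAi and 1.61 and 1.40 CPM in Set2 RNAi. Both hsbam 1 and 2 were higher, at 3.161 and 4.56 CPM, while hsbam 3 and 4 spread over 4.16 and 1.04 CPM and enclosed the Set2 RNAi values. The gene had 3.10 and 2.37 CPM in bam RNAi;S19b mutant, above bam RNAi at 0.314 and 0.934 CPM. The lowest group, bam RNAi, rests on 3 and 18 counts. Whole ovaries had 2.88 CPM (interval 2.31 to 3.55).

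The ubiquitin ligase gene neur, neuralized (FBgn0002932), promotes the endocytosis of Notch ligands in cells that send the signal. It lies on chromosome 3R (9020348 to 9039471, minus strand) and shares 1673 exon bases with asRNA:CR31429 on the opposite strand. The sources do not state the strand setting of the counting, which makes the count of neur uncertain, although asRNA:CR31429 held at most 1 count in any library. It had 60.2 and 48.6 CPM in libraries 1 and 2 labelled MSL3 RNAi and 45.4 and 46.3 CPM in NC2b RNAi, against 40.5 and 37.1 CPM in hsbam 1 and 2. In Set2 RNAi it had 55.3 and 66.1 CPM, while hsbam 3 and 4 had 45.8 and 16.0 CPM. It had 60.2 and 50.1 CPM in bam RNAi;S19b mutant, against 90.0 and 89.1 CPM in bam RNAi, and 26.5 CPM in whole ovaries (interval 24.7 to 28.4). Of the 7 genes, neur was the one with every library of all 3 knockdowns above its hsbam pair, and bam RNAi stood first and apart from every other group.

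The gene slbo, slow border cells (FBgn0005638), encodes the C/EBP transcription factor required for border cell migration, and is also active in other late follicle cells. The gene is on chromosome 2R (24331522 to 24334307, minus strand). It had 9.53 and 6.98 CPM in NC2b RNAi, 5.10 and 4.68 CPM in Set2 RNAi, and libraries 1 and 2 labelled MSL3 RNAi had 2.38 and 0.764 CPM. The level was 1.27 and 1.41 CPM in hsbam 1 and 2, between the libraries labelled MSL3 RNAi, and 0.153 and 0.174 CPM in hsbam 3 and 4. The group bam RNAi;S19b mutant had 1.84 and 1.21 CPM, from 22 counts in each library. In bam RNAi the counts were 0 and 3, where a count of 0 allows up to 0.314 CPM in library 1 (3 counts) and library 2 had 0.156 CPM. Whole ovaries had 6.62 CPM (interval 5.73 to 7.60), between the group means of NC2b RNAi and Set2 RNAi, and the interval holds the value of NC2b RNAi 2.

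**Figure D1:**
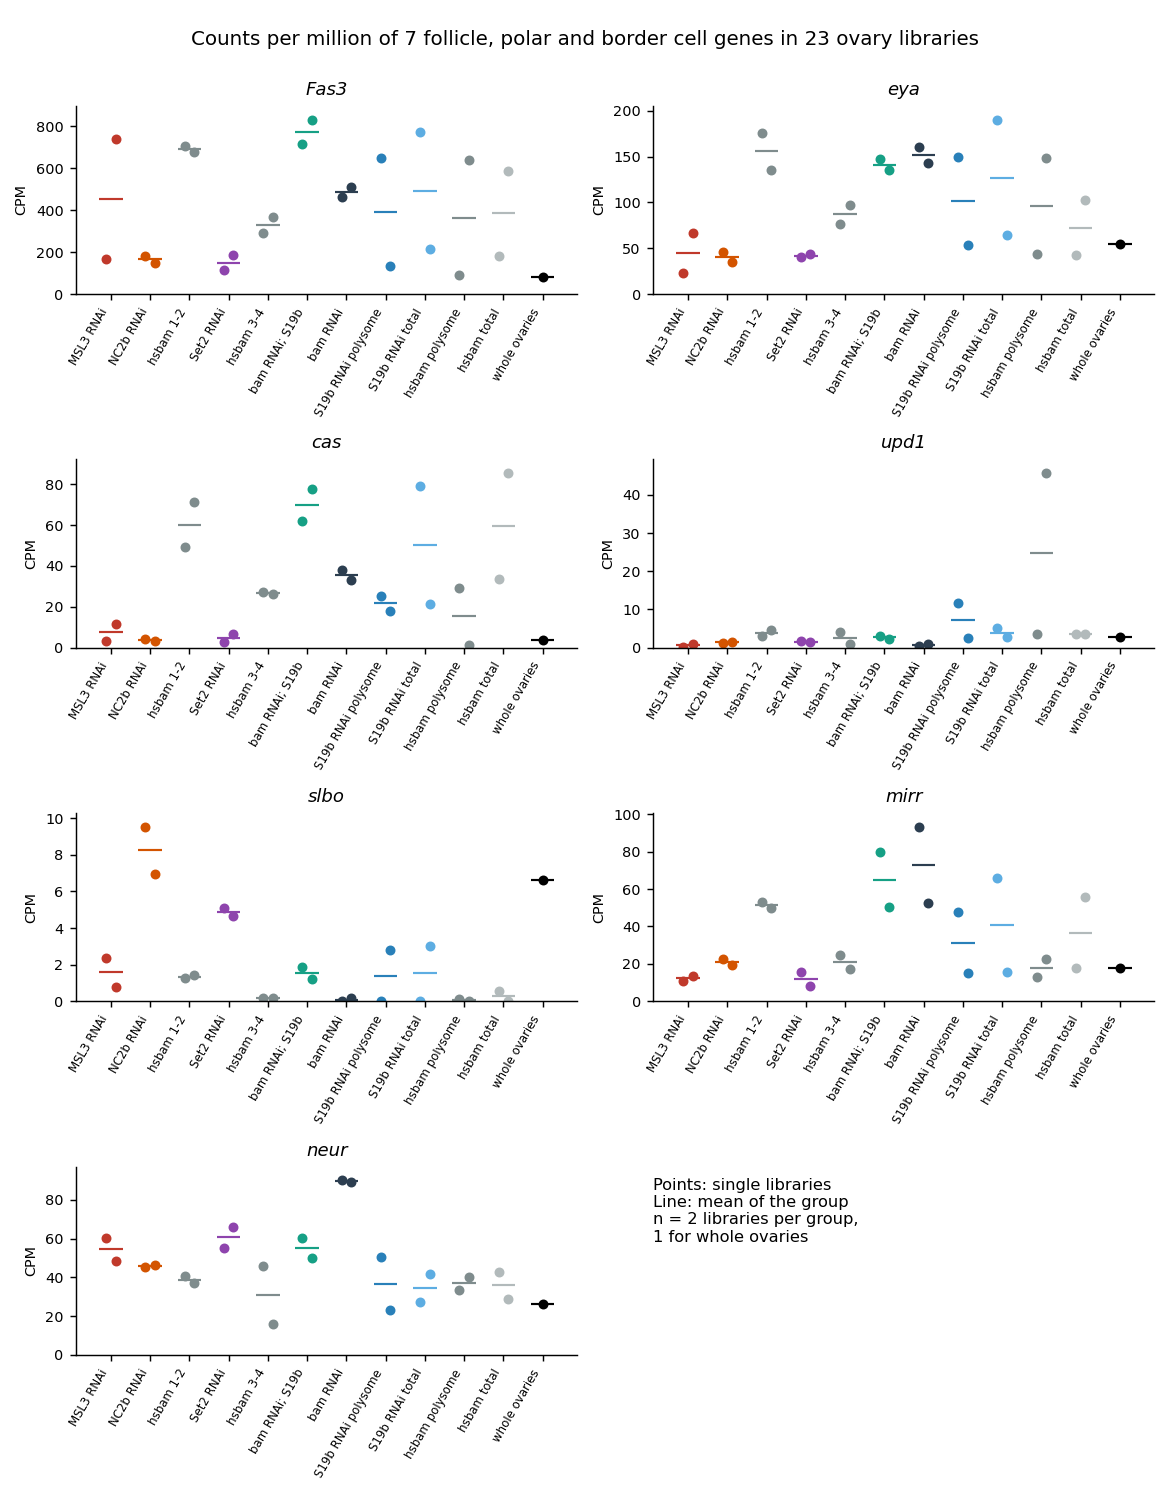
CPM (vertical axes, linear from 0) of the 7 genes in 23 libraries, with points for single libraries and lines for group means, over 12 groups along the horizontal axis. The libraries labelled MSL3 RNAi, NC2b RNAi and Set2 RNAi sit low for cas and eya, NC2b RNAi, Set2 RNAi and whole ovaries sit high for slbo, and both points of bam RNAi stand above all others for neur and the polysome library hsbam 2 stands alone for upd1 at 45.7 CPM.

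The levels of slbo and cas were also set against each other within each library. Their ratio is not scaled by sequencing depth, but few counts make it imprecise. This pair was chosen after the values were seen, and no test was run on it. Per 100 cas counts, slbo had 228 and 222 counts in NC2b RNAi, 188 and 68.3 in Set2 RNAi, and 74.8 and 6.58 in libraries 1 and 2 labelled MSL3 RNAi. Across the hsbam 1 to 4 libraries the number was 2.59, 1.98, 0.563 and 0.667, and it was 2.97 and 1.57 in bam RNAi;S19b mutant and 0 and 0.469 in bam RNAi. Whole ovaries had 174. In the gradient libraries of S19b RNAi 1 and 2 the number was 0 and 14.2 in total RNA and 0 and 15.4 in polysome RNA. In those of hsbam 1 and 2 it was 1.74 and 0 in total RNA and 0.490 and 0 in polysome RNA. The polysome library hsbam 2 held 4 cas counts and 0 slbo counts, so its value says little. The 6 libraries of MSL3 RNAi, NC2b RNAi and Set2 RNAi were thus above hsbam 1 to 4 and bam RNAi, with the library labelled MSL3 RNAi 2 the nearest to them, while S19b RNAi overlapped its hsbam libraries.

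**Figure D2:**
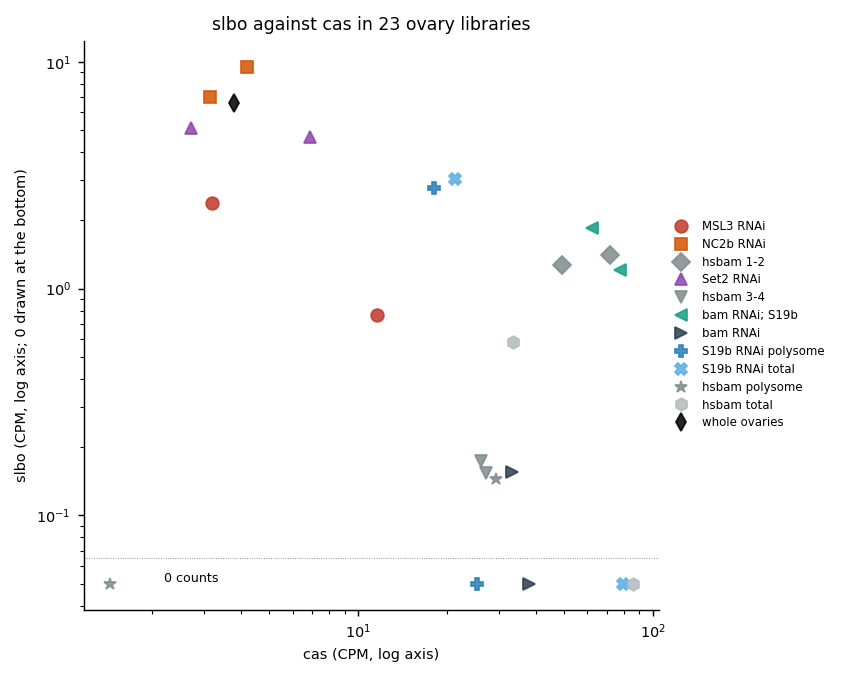
CPM of slbo (vertical, log axis, with libraries at 0 counts drawn at the bottom) against CPM of cas (horizontal, log axis), 1 symbol per library and a shape and colour per group. NC2b RNAi, Set2 RNAi and whole ovaries gather at low cas and high slbo, with 3.14 to 4.19 CPM of cas and 6.98 to 9.53 CPM of slbo in NC2b RNAi.

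The series design sets the libraries labelled MSL3 RNAi against hsbam 1 and 2. In this comparison cas and mirr fell. For cas the log2 fold change was -2.94 ± 0.64 (SE; adjusted p = 0.024 from the quasi-likelihood test of edgeR, adjusted by Benjamini-Hochberg), with both libraries of each group on their own side. For mirr it was -2.0 ± 0.23 (adjusted p = 0.0098, same test). These were 2 of the 7 genes, both lower, beside 25.3% of the 10180 genes tested that passed in either direction. The other genes did not pass, with eya at -1.71 ± 0.50 (adjusted p = 0.055), upd1 at -2.51 ± 0.75 (adjusted p = 0.058), neur at 0.56 ± 0.18 (adjusted p = 0.072), Fas3 at -0.53 ± 0.64 and slbo at 0.30 ± 0.63 in the same edgeR fit. The miss of eya depended on the processing, as it passed with the size factors of DESeq2 in edgeR (adjusted p = 0.040), with no filter on low counts (adjusted p = 0.037, edgeR) and with DESeq2 (adjusted p = 0.0024). Leaving out library hsbam 2 ended the call of cas (-2.64, adjusted p = 0.075), and leaving out library 2 labelled MSL3 RNAi raised the count to 6, adding Fas3 at -1.98, eya at -2.66, upd1 at -3.64 and neur at 0.71. Without library 2 the count over all genes was 2812 of 10846, and the lone library 1 was taken to vary like the other groups. With all 4 hsbam libraries as control the edgeR fit called none of the 7, with cas at -2.56 and mirr at -1.57. The median of the 7 was -1.71, against -0.09 over all genes.

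NC2b RNAi against the same hsbam 1 and 2 gave 3 calls, in which cas and mirr fell and slbo rose. The log2 fold change was -3.93 ± 0.67 for cas (adjusted p = 0.0198), -1.20 ± 0.22 for mirr (adjusted p = 0.0234) and 2.72 ± 0.66 for slbo (adjusted p = 0.0416, edgeR). All 3 had both NC2b RNAi libraries on 1 side of both controls. Among the 10180 genes tested, 18.6% passed, and the median of the 7 was -1.33, against -0.09 over all genes. The values of eya at -1.84 ± 0.50 (adjusted p = 0.055) and Fas3 at -1.97 ± 0.66 (adjusted p = 0.087) missed the threshold, as did upd1 at -1.33 ± 0.72 and neur at 0.34 ± 0.18. Here too eya passed with the size factors of DESeq2 in edgeR (adjusted p = 0.044), with no filter (adjusted p = 0.034, edgeR) and with DESeq2 (adjusted p = 0.0013). Leaving out any 1 of the 4 libraries ended most or all of these 3 calls, but calls over all genes fell as well. A lone library was taken to vary like the other groups in those fits. The log2 fold change of slbo stayed between 2.51 and 2.94. Both knockdowns share their control libraries, so their values are not independent of each other.

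Marker lists moved beside these calls. Of 17 matched eggshell genes of late follicle cells, 7 rose in the libraries labelled MSL3 RNAi (list median log2 fold change 2.33, against -0.09 over all genes) and 7 rose in NC2b RNAi (median 2.91, against -0.09). Their summed level was 13470 to 22390 CPM in the libraries labelled MSL3 RNAi and 25560 to 31240 CPM in NC2b RNAi, against 7743 to 10420 CPM in hsbam 1 and 2. Of 9 tested markers of escort, cap and terminal filament cells, which include tj, also expressed in follicle cells, 3 fell in each knockdown. The sum was 149 to 201 CPM in the libraries labelled MSL3 RNAi and 336 to 341 CPM in NC2b RNAi, where en and tup were at 0, against 484 to 652 CPM in hsbam 1 and 2. None of 7 muscle sheath genes passed in edgeR (0 at an unadjusted p under 0.05 and 0 with DESeq2 in the libraries labelled MSL3 RNAi, and 4 and 5 in NC2b RNAi), with sums of 4175 to 12340 CPM in the libraries labelled MSL3 RNAi and 3501 to 4118 CPM in NC2b RNAi, against 7191 to 23950 CPM in hsbam 1 and 2. Of 8 hemocyte and fat body genes, srp alone rose in each, and of 8 germline genes 4 rose and 1 fell in the libraries labelled MSL3 RNAi and 5 rose in NC2b RNAi. The part of these cell types in the calls of cas, mirr and slbo was not tested.

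Set2 RNAi against hsbam 3 and 4 gave 0 calls among the 7 genes, and 0.0% of 9313 genes passed edgeR's test. At an unadjusted p under 0.05 the count was 4 of the 7 and 1972 of all genes, and DESeq2 called cas and slbo among 1338 genes. The fitted values were 4.71 ± 0.73 for slbo (adjusted p = 0.0599), -2.66 ± 0.53 for cas (adjusted p = 0.081), -1.24 ± 0.30 for eya (adjusted p = 0.111), -1.32 ± 0.42 for Fas3 (adjusted p = 0.172, edgeR) and -0.98 ± 0.49 for mirr. Among the 7 genes the groups overlapped for upd1 alone, but overlap was not counted over all genes. The pooled ratio of slbo was 30.5 (exact 95% interval 15.7 to 67.7, counting error only). The control libraries correlated at r = 0.872 over log2 CPM, against 0.982 for the Set2 RNAi libraries. Leaving out hsbam 3 gave 5 calls and leaving out hsbam 4 gave 4, with Fas3, eya, cas and slbo in both. Over all genes these fits called 5661 of 9797 without hsbam 3 and 2454 of 9863 without hsbam 4. A lone hsbam library has no spread of its own, and it was taken to vary like the Set2 RNAi libraries. Eggshell sums were 12710 to 16840 CPM in Set2 RNAi, against 1192 to 4656 CPM in hsbam 3 and 4, and muscle sheath sums 1253 to 1356 CPM, against 14390 to 28720 CPM. None of 46 tested genes of the marker lists passed in edgeR (19 at an unadjusted p under 0.05 and 23 with DESeq2), and their part in the values of the 7 genes was not tested.

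**Figure D3:**
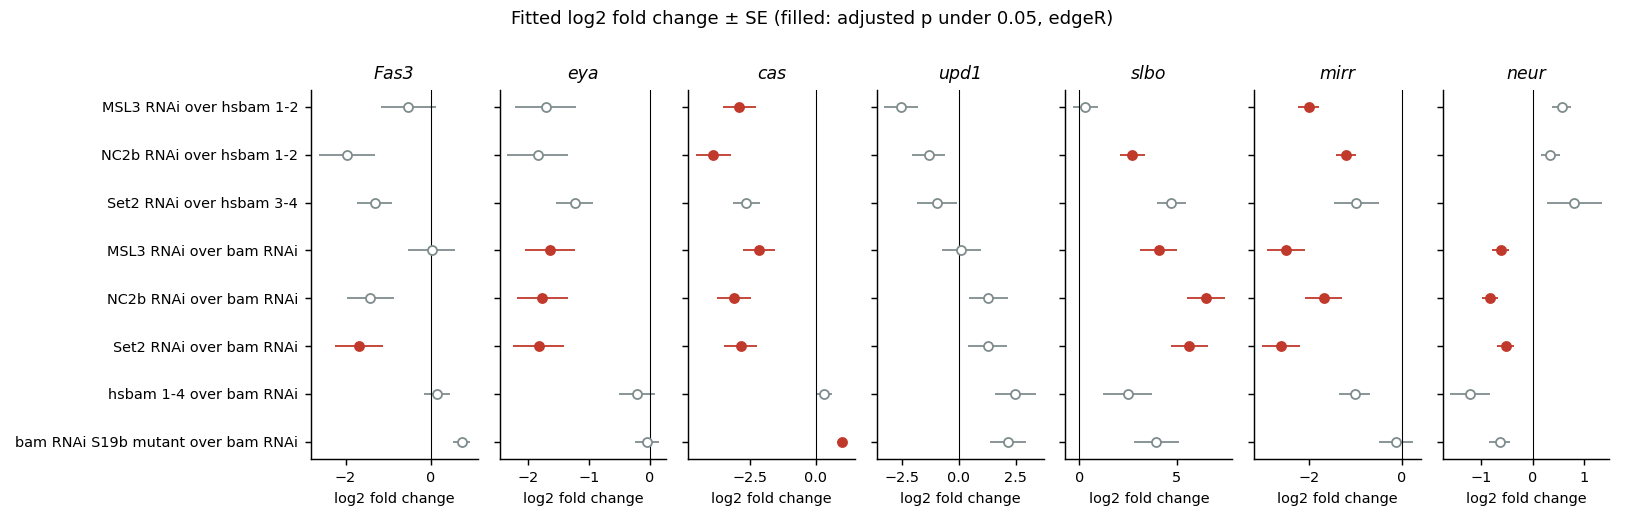
Fitted log2 fold change (horizontal axes, error bars of 1 SE) of each of the 7 genes in 8 comparisons listed down the page, filled red where the adjusted p was under 0.05 in edgeR. The points of cas lie left of 0 in all 6 knockdown comparisons and those of slbo right of 0, although only some of them passed, and neur is right of 0 against hsbam and left of 0 against bam RNAi.

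Against bam RNAi, whose ovaries hold undifferentiated germ cells, slbo rose and eya, cas, mirr and neur fell in all 3 knockdowns. Fas3 also fell in Set2 RNAi. These comparisons share their control and cross the series' own pairs of knockdown and control, so any batch and the genotype cannot be told apart. Of the 7 genes, 5 passed in the libraries labelled MSL3 RNAi, 5 in NC2b RNAi and 6 in Set2 RNAi, beside 44.8%, 37.4% and 36.3% of 9932 genes tested in the same way with edgeR. The median log2 fold change of the 7 genes was -0.62, -1.42 and -1.68 in these knockdowns, against 0.06, 0.01 and -0.03 over all genes.

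The rise of slbo was the most extreme of these changes. With 3 counts in the pooled bam RNAi libraries a fitted fold change depends on the prior count, so the ratio of pooled CPM is given. It was 15.5 in the libraries labelled MSL3 RNAi (exact 95% interval 5.17 to 76.5), 83.3 in NC2b RNAi (28.3 to 405.5) and 46.7 in Set2 RNAi (15.7 to 228.7), with intervals for counting error only. The adjusted p was 0.00868 in the libraries labelled MSL3 RNAi, 0.0013 in NC2b RNAi and 0.00267 in Set2 RNAi. Leaving out any single library did not end these 3 calls.

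The fall of cas was -2.16 ± 0.62 in the libraries labelled MSL3 RNAi (adjusted p = 0.021), -3.14 ± 0.65 in NC2b RNAi (adjusted p = 0.0062) and -2.88 ± 0.64 in Set2 RNAi (adjusted p = 0.0092, edgeR). For eya the values were -1.64 ± 0.41, -1.77 ± 0.42 and -1.83 ± 0.42 in the same order of knockdowns (adjusted p = 0.0125, 0.0112 and 0.0103). All 6 knockdown libraries lay below both bam RNAi libraries for each of these genes. For mirr the change was -2.49 ± 0.41, -1.68 ± 0.40 and -2.60 ± 0.42 (adjusted p = 0.0018, 0.0119 and 0.0021). The change of neur was smaller, at -0.62 ± 0.16, -0.83 ± 0.16 and -0.53 ± 0.16 (adjusted p = 0.0155, 0.0052 and 0.0348), so neur was lower than in bam RNAi in all 3 knockdowns although it had been above the hsbam pairs in CPM. Fas3 fell by 1.68 ± 0.56 on the log2 scale in Set2 RNAi (adjusted p = 0.0456), while it was at 0.01 ± 0.55 in the libraries labelled MSL3 RNAi and -1.42 ± 0.56 in NC2b RNAi (adjusted p = 0.074).

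Single libraries decided part of these calls. Fewer of all genes also passed in each fit with a library left out, where a lone library was taken to vary like the other groups. Without bam RNAi 1, 2 calls were left for the libraries labelled MSL3 RNAi, 3 for NC2b RNAi and 2 for Set2 RNAi. In NC2b RNAi 2 were left without either of its libraries, and in Set2 RNAi 2 without library 1 and 3 without library 2. In the libraries labelled MSL3 RNAi cas also missed the threshold without bam RNAi 2 (-2.26, adjusted p = 0.069), and neur without library 2 (-0.45, adjusted p = 0.074, edgeR). The calls of Fas3 and neur in Set2 RNAi ended without any 1 of the 4 libraries. Fas3 in the libraries labelled MSL3 RNAi turned to -1.43 without library 2 (adjusted p = 0.0013) and to 0.76 without library 1 (adjusted p = 0.0275), so the libraries pointed in opposite directions.

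Eggshell genes moved in the same comparisons, as 16 of 17 rose in the libraries labelled MSL3 RNAi, 17 in NC2b RNAi and 16 in Set2 RNAi (list medians 7.35, 7.72 and 6.95, against 0.06, 0.01 and -0.03 over all genes). Their sum in bam RNAi was 1255 to 1347 CPM. Escort, cap and terminal filament markers summed to 149 to 201 CPM in the libraries labelled MSL3 RNAi, 336 to 341 CPM in NC2b RNAi and 267 to 308 CPM in Set2 RNAi, against 534 to 610 CPM in bam RNAi, and 2, 3 and 4 of their 6 tested genes fell. Lmx1a and tup were at 0 in Set2 RNAi. Of 8 germline genes, 3, 4 and 4 rose and 3 fell in each knockdown, and of 7 tested hemocyte and fat body genes 5, 4 and 1 rose. Muscle sheath genes rose in 6 of 7 cases in the libraries labelled MSL3 RNAi and in 1 of 7 in NC2b RNAi, and 3 of 7 fell in Set2 RNAi, where Hml of the hemocytes also fell. The part of these cell types in the changes of the 7 genes was not tested.

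The 4 hsbam libraries were also set against bam RNAi, which lacks the heat-shock transgene. No gene of the 7 passed, beside 0.00991% of 10088 genes, which is 1 gene, with 2142 at an unadjusted p under 0.05 and 1334 by DESeq2. Among the 7, the count at an unadjusted p under 0.05 was 3 (mirr, neur and upd1), and DESeq2 called upd1 alone. The values were -1.01 ± 0.34 for mirr (adjusted p = 0.163), -1.21 ± 0.39 for neur (adjusted p = 0.155) and 2.48 ± 0.90 for upd1 (adjusted p = 0.185, edgeR). Every hsbam library was below both bam RNAi libraries for neur and above both for upd1, but such separation was not counted over all genes. Without hsbam 3, mirr at -1.11 and neur at -1.65 passed, and without hsbam 4 neur passed at -0.95. The same fits called 2692 of 10692 genes without hsbam 3 and 486 of 10759 without hsbam 4. The pooled slbo ratio was 6.90 (exact 95% interval 2.28 to 34.2, counting error only), but it differed between the hsbam pairs, at 12.7 (4.17 to 63.1) for hsbam 1 and 2 and 1.53 (0.383 to 8.81) for hsbam 3 and 4. The eggshell sums were 1192 to 10420 CPM in hsbam 1 to 4, against 1255 to 1347 CPM in bam RNAi. None of 47 marker genes passed in edgeR, with 37 at an unadjusted p under 0.05 and 28 by DESeq2, and their part was not tested.

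In bam RNAi ovaries, the S19b mutation was set against bam RNAi alone, a comparison of the effect of the ribosomal protein paralog RpS19b. Only cas passed, and it rose by 1.01 ± 0.21 on the log2 scale (adjusted p = 0.0368, edgeR), with 62.0 and 77.6 CPM in bam RNAi;S19b mutant and 38.1 and 33.2 CPM in bam RNAi. That is 1 of 7 genes, beside 6.13% of 9595 genes tested. Fas3 at 0.72 ± 0.20 (adjusted p = 0.082), slbo at 3.95 ± 1.15 (adjusted p = 0.093) and upd1 at 2.13 ± 0.79 (adjusted p = 0.165, edgeR) did not pass. For each, both mutant libraries lay above both bam RNAi libraries, but such separation was not counted over all genes. The pooled slbo ratio was 14.1 (exact 95% interval 4.51 to 70.8, counting error only). Leaving out bam RNAi 1, bam RNAi 2 or mutant library 2 ended the call of cas, with fold changes of 1.17, 0.83 and 0.86. Over all genes almost none passed without either bam RNAi library, whereas the number did not fall without mutant library 2. Without mutant library 1, where more of all genes passed, neur passed as well, at -0.85.

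All 7 muscle sheath genes rose in bam RNAi;S19b mutant, and their sum was 6779 to 11950 CPM in it, against 2918 to 2995 CPM in bam RNAi. Eggshell genes rose in 3 of 15 cases, with sums of 2086 to 5612 CPM in bam RNAi;S19b mutant, against 1255 to 1347 CPM in bam RNAi. Of 8 germline genes only osk passed, at 4.19 ± 0.30, while the list median was -0.56, against 0.00 over all genes. The germline sum was lower in the mutant libraries, at 2000 to 2147 CPM, against 2664 to 3430 CPM in bam RNAi. Its largest item was piwi, with means of 625 CPM in the mutant and 962 CPM in bam RNAi. The listed genes vas and nos were not matched, so the sum lacks them. Of 7 escort, cap and terminal filament genes only bab2 passed, at 1.47 ± 0.22. Of the hemocyte markers, NimC1 and Hml rose, and Fbp2 and Lsp1alpha were at 0 in bam RNAi. The part of these cells in the change of cas was not tested.

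Other genes of the same pathways were counted from lists chosen without regard to how they moved, although with earlier results of these data known. Values given for them are fitted log2 fold changes with SE. As background, against hsbam 1 and 2 the libraries labelled MSL3 RNAi had 1710 higher and 863 lower calls among all 10180 genes (25.3%), and NC2b RNAi had 1436 higher and 461 lower calls (18.6%). Against bam RNAi, 2466 of 9932 genes rose and 1984 fell (44.8%) in the libraries labelled MSL3 RNAi, 2110 rose and 1609 fell (37.4%) in NC2b RNAi, and 2010 rose and 1599 fell (36.3%) in Set2 RNAi. The all-gene medians were between -0.09 and 0.06 in these 5 comparisons, and no list was tested as a whole. In JAK-STAT signalling, which upd1 activates, no gene of 9 passed in edgeR against hsbam 1 and 2, while 3 in the libraries labelled MSL3 RNAi and 1 in NC2b RNAi had an unadjusted p under 0.05, and DESeq2 called 1 and 2. Against bam RNAi, 3 of 8 rose in the libraries labelled MSL3 RNAi, namely the Janus kinase hop at 1.45 ± 0.23, the receptor dome at 0.61 ± 0.15 and Socs44A at 0.60 ± 0.18. Socs44A was the only one to rise in Set2 RNAi, at 0.69 ± 0.18, and none passed in NC2b RNAi, with 1 at an unadjusted p under 0.05 and 0 by DESeq2. The list medians against bam RNAi were 0.61 in the libraries labelled MSL3 RNAi, 0.07 in NC2b RNAi and -0.03 in Set2 RNAi. In bam RNAi;S19b mutant the feedback inhibitor Socs36E rose by 1.06 ± 0.21 (adjusted p = 0.034, edgeR), beside a list median of 0.71 and an all-gene median of 0.00.

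Notch pathway genes and regulators of the switch to endocycles, to which neur belongs, went in both directions. Against hsbam 1 and 2, 4 of 11 rose and 3 fell in the libraries labelled MSL3 RNAi, and 3 rose and 2 fell in NC2b RNAi. The Notch regulator dx rose in both, by 1.62 ± 0.19 in the libraries labelled MSL3 RNAi and 1.44 ± 0.19 in NC2b RNAi, and the glycosyltransferase fng fell in NC2b RNAi, at -2.11 ± 0.36. Against bam RNAi 3 of 11 rose and 4 fell in each knockdown, with list medians of -0.39 in the libraries labelled MSL3 RNAi, -0.66 in NC2b RNAi and -1.096 in Set2 RNAi. The homeobox gene ct, which Notch turns off in follicle cells that leave the mitotic cycle, fell, at -3.05 ± 0.27 in the libraries labelled MSL3 RNAi, -3.09 ± 0.27 in NC2b RNAi and -3.45 ± 0.28 in Set2 RNAi, as did the receptor gene N at -0.95 ± 0.16, -0.89 ± 0.16 and -1.096 ± 0.16. In NC2b RNAi peb, the hindsight factor that Notch turns on, rose by 1.53 ± 0.21, and in bam RNAi;S19b mutant by 1.59 ± 0.25.

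Patterning genes of the EGFR and Dpp pathways, upstream of mirr, were counted against bam RNAi. Of 15, 3 rose and 6 fell in the libraries labelled MSL3 RNAi, 1 rose and 6 fell in NC2b RNAi, and 1 rose and 7 fell in Set2 RNAi, with list medians of -0.28, -0.67 and -0.998. Together 9, 7 and 8 of 15 passed, where the all-gene shares were 44.8%, 37.4% and 36.3%. The EGFR feedback inhibitors kek1 and sty fell in all 3, at -3.58 ± 0.25, -2.67 ± 0.24 and -2.24 ± 0.23 for kek1 and at -2.03 ± 0.26, -2.42 ± 0.26 and -3.06 ± 0.27 for sty. Against hsbam 1 and 2, kek1 fell in the libraries labelled MSL3 RNAi, at -2.099 ± 0.41, and sty in NC2b RNAi, at -1.26 ± 0.26. The ubiquitin ligase gene Cbl, a negative regulator of EGFR, rose by 1.63 ± 0.19 in the libraries labelled MSL3 RNAi and 1.42 ± 0.19 in NC2b RNAi. In bam RNAi;S19b mutant only Dad, an inhibitor of Dpp signalling, passed, at 1.15 ± 0.23.

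Hedgehog and Wnt pathway genes of early follicle cells also split. Against bam RNAi 3 of 9 rose in each knockdown, and 3 fell in the libraries labelled MSL3 RNAi, 4 in NC2b RNAi and 5 in Set2 RNAi. The list medians were -0.09, -0.83 and -1.17. The Hedgehog effector ci fell, at -1.93 ± 0.47 in the libraries labelled MSL3 RNAi, -2.49 ± 0.48 in NC2b RNAi and -2.62 ± 0.49 in Set2 RNAi, whereas the receptor gene fz rose by 0.76 ± 0.17, 1.53 ± 0.18 and 1.17 ± 0.17. Against hsbam 1 and 2, fz, cos and smo rose in both comparisons, and 1 of the 9 fell in NC2b RNAi. The list medians there were nevertheless negative, at -0.41 in the libraries labelled MSL3 RNAi and -0.78 in NC2b RNAi, against -0.09 over all genes. At an unadjusted p under 0.05 in edgeR the counts were 7 and 8 of 9.

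For border cell migration, with slbo, the actin bundler gene sn rose against hsbam 1 and 2 by 1.81 ± 0.29 in the libraries labelled MSL3 RNAi and 1.97 ± 0.29 in NC2b RNAi. It was 1 of 2 genes of 12 that rose in the libraries labelled MSL3 RNAi and the only one in NC2b RNAi. Against bam RNAi sn rose by 1.46 ± 0.25, 1.63 ± 0.25 and 1.58 ± 0.25, and the guidance ligand gene Pvf1 by 2.097 ± 0.28, 1.502 ± 0.28 and 1.94 ± 0.28. In total 3 of 12 rose and 2 fell in the libraries labelled MSL3 RNAi, and 2 rose and 3 fell in NC2b RNAi and in Set2 RNAi, with list medians of 0.10, -0.18 and -0.52. The fallers included shg, the E-cadherin gene, at -1.24 ± 0.18 in Set2 RNAi and the JNK phosphatase gene puc at -1.15 ± 0.24 in NC2b RNAi. In bam RNAi;S19b mutant tsl, a gene expressed in border and polar follicle cells, rose by 1.81 ± 0.40 and kay by 0.99 ± 0.20.

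Epithelial polarity genes, the neighbours of Fas3 in function, rose in 4 of 12 cases in the libraries labelled MSL3 RNAi against hsbam 1 and 2, and in NC2b RNAi 4 rose and 1 fell. Against bam RNAi 4 rose and 1 fell in the libraries labelled MSL3 RNAi, 2 rose and 4 fell in NC2b RNAi, and 1 rose and 4 fell in Set2 RNAi, with list medians of 0.32, -0.75 and -0.95. The adhesion gene Fas2 fell, at -2.52 ± 0.50 in NC2b RNAi and -2.71 ± 0.50 in Set2 RNAi. Genes of the ecdysone response rose in 5 of 10 cases and fell in 1 in the libraries labelled MSL3 RNAi, and 7 of 10 rose in NC2b RNAi, against hsbam 1 and 2. There the nuclear receptor gene ftz-f1 rose by 2.03 ± 0.22 in the libraries labelled MSL3 RNAi and 1.96 ± 0.22 in NC2b RNAi. Against bam RNAi 5 rose and 1 fell in the libraries labelled MSL3 RNAi and in NC2b RNAi, and 3 rose and 2 fell in Set2 RNAi, with list medians of 0.62, 0.65 and 0.38. No gene of these lists passed in Set2 RNAi against hsbam 3 and 4, where 14 of 77 had an unadjusted p under 0.05 and DESeq2 called 8. Likewise none passed in hsbam 1 to 4 against bam RNAi, with 23 of 77 at an unadjusted p under 0.05 and 8 by DESeq2.

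The gradient experiment asked how RpS19b depletion changes total and polysome RNA. Its libraries did not all group by genotype. In log2 CPM over 9071 genes, total RNA of hsbam 1 correlated with total RNA of S19b RNAi 2 at r = 0.878 and with that of hsbam 2 at 0.866, while total RNA of S19b RNAi 1 and 2 correlated at 0.819. Total RNA of hsbam 2 and S19b RNAi 1 correlated at 0.798, below the value of each with its own genotype. Total and polysome RNA of the same number correlated at 0.978 in hsbam 1, 0.766 in hsbam 2, 0.841 in S19b RNAi 1 and 0.959 in S19b RNAi 2. Polysome RNA of S19b RNAi 1 was closer to total RNA of S19b RNAi 2, at 0.856. The polysome library hsbam 2 had 2780781 counts and r of 0.652 to 0.766 with the other 7 libraries. Muscle sheath sums in total RNA were high in S19b RNAi 1 and hsbam 2, at 21520 and 18600 CPM. They were low in S19b RNAi 2 and hsbam 1, at 6701 and 4428 CPM.

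Fas3, eya, mirr and cas showed the same split in total RNA as the muscle sheath sums. In total RNA Fas3 had 771 and 215 CPM in S19b RNAi 1 and 2, against 183 and 585 CPM in hsbam 1 and 2, and in polysome RNA 650 and 134 CPM, against 90.2 and 637 CPM. For eya the total RNA values were 190 and 64.0 CPM in S19b RNAi, against 42.4 and 102 CPM in hsbam, and the polysome values 150 and 53.1 CPM, against 43.8 and 149 CPM. In both genes S19b RNAi 1 and hsbam 2 were high and S19b RNAi 2 and hsbam 1 were low, so the genotypes overlapped. For mirr the total RNA values were 66.1 and 15.5 CPM in S19b RNAi, against 17.5 and 55.7 CPM in hsbam, and for cas 79.4 and 21.4 CPM, against 33.5 and 85.4 CPM. The slbo counts fell on the other side, with 0 and 42 counts in total RNA and 0 and 38 in polysome RNA of S19b RNAi 1 and 2, against 9 and 0 in total RNA and 2 and 0 in polysome RNA of hsbam 1 and 2. A count of 0 allows up to 0.330 CPM in the total library S19b RNAi 1 and 1.079 CPM in the polysome library hsbam 2. In total RNA neur had 27.1 and 41.7 CPM in S19b RNAi, against 42.7 and 29.0 CPM in hsbam, and upd1 had 5.17 and 2.67 CPM, against 3.62 and 3.49 CPM. In polysome RNA mirr had 47.5 and 15.1 CPM in S19b RNAi, against 12.9 and 22.7 CPM in hsbam, and cas had 25.3 and 18.1 CPM, against 29.4 and 1.44 CPM. Polysome neur had 50.6 and 22.9 CPM in S19b RNAi, against 33.7 and 39.9 CPM in hsbam, and upd1 had 11.8 and 2.63 CPM, against 3.68 and 45.7 CPM. The genotypes overlapped for each of these genes in polysome RNA.

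None of the 7 genes passed edgeR's test in any of the 5 gradient comparisons, at an unadjusted p under 0.05 or with DESeq2. Among all 9688 genes, 0.0% passed for S19b RNAi against hsbam in total RNA, 0.0% in polysome RNA, 0.0% for polysome against total RNA in hsbam, 0.0% for the same in S19b RNAi, and 0.0% for the change of that ratio between the genotypes. The counts at an unadjusted p under 0.05 were 170, 320, 42, 5 and 5 genes, and those of DESeq2 50, 141, 0, 0 and 0. The errors were wide, as Fas3 was at 0.25 ± 1.11 in total RNA and -0.35 ± 1.11 in polysome RNA. For eya the value was 0.71 ± 0.90 in total RNA and -0.33 ± 0.90 in polysome RNA. Differences of these sizes were not detectable between these libraries.

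Polysome to total ratios of same-numbered libraries ran from 0.492 to 1.09 for Fas3, 0.407 to 0.975 for mirr and 0.548 to 1.87 for neur. For eya the ratio was 0.788 and 0.831 in S19b RNAi 1 and 2, against 1.03 and 1.45 in hsbam 1 and 2, so each genotype lay on its own side of 1. The fitted change of this ratio was -1.04 ± 1.27 (adjusted p = 1.00, edgeR). The polysome library hsbam 2 departed from this, since cas had 4 counts and a ratio of 0.0168 and upd1 had 127 counts and a ratio of 13.1. In the other 3 pairs the ratio was 0.318 to 0.878 for cas and 0.985 to 2.28 for upd1. The depth of polysome library hsbam 2 was the lowest of the 23, and the part of depth in these ratios was not tested.

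Across the 23 libraries Fas3, eya and mirr varied together. In log2 CPM with a prior count of 2, the correlation was 0.852 between Fas3 and eya, 0.848 between eya and mirr and 0.725 between Fas3 and mirr. For cas it was 0.639 with eya, 0.669 with mirr and -0.611 with slbo, and slbo was also negative with eya at -0.568, Fas3 at -0.514 and mirr at -0.463. The genes upd1 and neur stood apart, with no correlation with any other of the 7 above 0.411 in size. These are descriptions over 23 libraries that share groups, genotypes and library preparation, and no p is given.

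**Figure D4:**
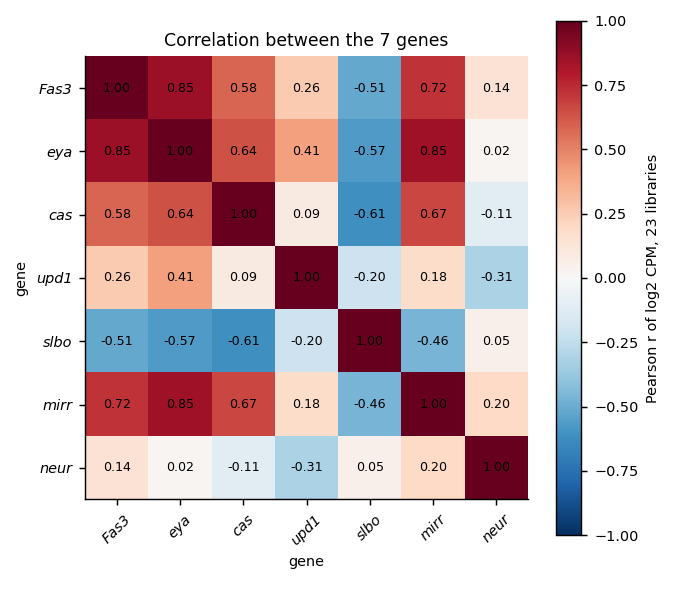
Pearson correlation of log2 CPM between each pair of the 7 genes (rows and columns) over 23 libraries, on a colour scale of -1 to 1 with the value in each cell. Fas3, eya, cas and mirr form a positive block from 0.585 to 0.852, and slbo is negative with each of those 4 genes.

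Among 9071 genes with a mean of at least 1 CPM, the 3 genes most like each of the 7 in the same measure over the same 23 libraries were named. For Fas3 they were the Frizzled receptor gene fz2 at 0.948, the adhesion gene Fas2 at 0.946 and FBgn0262742 at 0.945. For eya they were 14-3-3zeta at 0.919, Wnt4 at 0.918 and ana at 0.91, and for cas Wnt2 at 0.95, Ccdc114 at 0.942 and CG34355 at 0.913. For mirr they were ASPP at 0.926, jim at 0.903 and ec at 0.902. Likeness was weaker for slbo, with CG13998 at 0.868, the yolk protein gene Yp2 at 0.833 and CG7460 at 0.83, and weakest for upd1, with ben at 0.766, Met75Cb at 0.765 and eIF1A at 0.758. The nearest to neur were bsd at 0.912, slim at 0.901 and the cohesin gene SMC3 at 0.899.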

How the data were processed

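RNA was poly(A)-selected and made into directional libraries, per the labels' protocols. The authors deposited whole-number read counts per gene for each library, with 17023 FlyBase gene IDs. Symbols were found for 16647 of them. HISAT2 2.1.0, featureCounts 1.6.0.4, edgeR 3.16.5 and the dm6 build are named in the submitters' processing notes. Neither the annotation release nor the strand setting is given in these sources. The 8 small tables beside the counts were not used. Gene coordinates are those of the reference annotation on dm6.

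Genes were filtered with filterByExpr (minimum count 10, minimum total 15), scaled by TMM and tested with edgeR 4.0.16 in R 4.3.3, by quasi-likelihood with Benjamini-Hochberg adjustment over all genes of a comparison at 0.05. There were 13 comparisons from 6 fits, each over the libraries of the groups it compared. Not every fit stayed within an experiment. The fit of the knockdowns against bam RNAi crossed the series' own pairs of knockdown and control. The fit of hsbam against bam RNAi pooled the hsbam libraries of different knockdowns. The fits were also run on simulated data with 200 genes changed 8-fold. The simulation gave all libraries the same spread and no outlying library, so it does not speak to power in these data. Zero counts were read against a floor of 3 counts. Intervals are exact and at 95%, and cover counting error only, since reads carried no molecular identifiers.

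The 7 genes and the 12 lists of other genes were chosen with earlier results of these data known. Named genes were the 7, the targeted genes, up to 3 genes per list and comparison with the lowest p among those that passed, and the 3 genes most like each of the 7 (Python 3.11.15). The labels do not say that a replicate number marks shared samples, so fits were unpaired. If total and polysome RNA of a number shared a sample, the unpaired SE of their ratio also holds differences between samples. Deviations of same-numbered libraries correlated at 0.299 (hsbam) and 0.486 (S19b RNAi) between total and polysome RNA and at -0.288 to 0.212 elsewhere. Alternatives were DESeq2 1.42.0, its size factors in edgeR, no filter, each library left out, a replicate block and all 4 hsbam libraries as control.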

Additional observations from a re-analysis of the deposited data

Results flagged for a closer look

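The polysome to total ratio of eya lay on opposite sides of 1 in the genotypes of the gradient experiment, at 0.788 and 0.831 in S19b RNAi 1 and 2 and 1.03 and 1.45 in hsbam 1 and 2. The mean log2 ratio differed by -0.60 (S19b RNAi minus hsbam, pseudocount 0.1 CPM). Pairs of libraries were left out 1 at a time, a choice made after seeing the data. The difference was -0.84 without hsbam pair 1 and -0.35 without hsbam pair 2. It was -0.56 without S19b RNAi pair 1 and -0.64 without S19b RNAi pair 2. None of these values could change sign, because eya was picked for having both ratios of a genotype on 1 side of 1. The pair hsbam 2 holds the polysome library with 2780781 counts. This contrast of single ratios was picked out because both libraries of each genotype moved one way, and the difference in these ratios was not tested. The fitted change in edgeR, over all 8 gradient libraries, was -1.04 ± 1.27. It turned to 0.57 without polysome library hsbam 2 and to 0.017 without total library S19b RNAi 1. No group had 4 or more libraries, so no library was checked against the spread of its own group.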

How the results depend on the processing

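Of the fold changes of the 7 genes under the alternatives, 701 stayed on their side of the threshold, 40 newly passed, 49 no longer passed and 1 turned with a call. Of the 701, 622 kept their direction and 79, short of the threshold in both fits, changed sign. Among these were Fas3 at 0.20 and slbo at -0.70 in the libraries labelled MSL3 RNAi over hsbam 1 and 2 without MSL3 RNAi library 1, and upd1 at 0.34 in Set2 RNAi over hsbam 3 and 4 without hsbam 3. The turned call was Fas3 in the libraries labelled MSL3 RNAi over bam RNAi, at -1.43 without MSL3 RNAi library 2 and 0.76 without library 1. The number of the 7 genes that passed moved as follows. With DESeq2 it was 4 in the libraries labelled MSL3 RNAi and 5 in NC2b RNAi over hsbam 1 and 2. It was 2 in Set2 RNAi over hsbam 3 and 4, 1 in hsbam over bam RNAi and 2 in bam RNAi;S19b mutant over bam RNAi. Over all genes DESeq2 called 3274 of 13806 in the libraries labelled MSL3 RNAi and 3270 of 13806 in NC2b RNAi. It called 1338 of 13063 in Set2 RNAi, 1334 of 13977 in hsbam and 1169 of 13818 in the mutant. With no filter on low counts the number of the 7 was 2 in Set2 RNAi over hsbam 3 and 4. It was 1 in hsbam over bam RNAi and 3 in the mutant. The same fits called 849 of 13063, 1409 of 13977 and 1426 of 13818 genes. Over hsbam 1 and 2, the size factors of DESeq2 or no filter gave 3 in the libraries labelled MSL3 RNAi. In NC2b RNAi they gave 4, and eya was the gene added each time. Over all genes the size factors gave 2374 and 1676 calls of 10180, and no filter 2464 and 2027 of 13806. With all 4 hsbam libraries as control the number of the 7 was 0 in the libraries labelled MSL3 RNAi and 0 in NC2b RNAi. It was 2 in Set2 RNAi, beside 637 of 9951 genes. Leaving out single libraries gave 1 to 6 for the libraries labelled MSL3 RNAi, 0 to 1 for NC2b RNAi and 0 to 5 for Set2 RNAi over hsbam, 2 to 6, 2 to 5 and 2 to 4 for the same knockdowns over bam RNAi, 0 to 2 for hsbam over bam RNAi and 0 to 2 for the mutant. The number of all genes that passed also moved in the fits with a library left out, and the causes were not tested. With a replicate block, 3 genes passed in the mutant (cas, Fas3 and neur), and 2 in NC2b RNAi over hsbam 1 and 2, where slbo was at 2.67 (adjusted p = 0.0622, edgeR). A crossed pairing of the gradient libraries, chosen after seeing the data, gave 0 calls among the 7, with 8 of all genes in total RNA and 15 in polysome RNA. With total and polysome libraries of a number as a pairing block, 8 of all genes passed for polysome over total in hsbam and 1 in S19b RNAi, and none of the 7. Without the polysome library hsbam 1, 722 of 10300 genes passed in polysome RNA and 460 for polysome over total in hsbam, again none of the 7. Over all genes, the 588 calls in the mutant became 1426 with no filter, 1169 with DESeq2 and 2150 with the replicate block, and leaving out either NC2b RNAi library left 0 of its 1897 calls over hsbam. Over hsbam 1 and 2, 18 genes passed in the libraries labelled MSL3 RNAi and 3 in NC2b RNAi with all 4 hsbam libraries as control. With 2 libraries a group, one of them often unlike the other, a gene that missed the threshold is not shown to be unchanged, and slbo and upd1 rest on few counts.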
